A study of Mus musculus with 8 samples.

Results

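The Dlx genes Dlx1, Dlx2, Dlx5 and Dlx6 were examined in 8 lists of H3K27ac peaks from mouse neuronal cultures. Their 4 members lie in 2 pairs. Dlx1 (chr2:71528113-71533981) and Dlx2 (chr2:71543408-71546754) form the first locus, and Dlx6 (chr6:6863334-6867970) and Dlx5 (chr6:6877801-6882068) the other, in the coordinates of mm10. Every peak that overlapped a pair or the 50 kb to each side of it was taken, in the windows chr2:71478113-71596754 and chr6:6813334-6932068. This gave 154 peaks of the 378594 in the 8 lists, 89 at Dlx1-Dlx2 and 65 at Dlx5-Dlx6. The groups were MGE KCl, MGE unstimulated, CTX KCl and CTX unstimulated, with 2 libraries each. MGE commonly stands for the medial ganglionic eminence, the embryonic source of many cortical GABAergic interneurons, and CTX for cortex. All cultures had the genotype C57/BL6 and were silenced overnight at day 6 in vitro with 1 µM TTX, which blocks sodium channels, and 100 µM D-AP5, which blocks NMDA receptors. At day 7 KCl cultures were depolarised with 55 mM KCl for 2 h, and unstimulated cultures were not. Titles of CTX libraries give embryonic day 14 and the source field of all libraries embryonic day 16. The cell type field names cortical neurons for MGE libraries too, so groups follow the titles. Libraries are called biological replicates with no statement of what was kept separate, so each p-value speaks of the spread among the libraries at hand, which may be technical.

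Dlx genes encode homeodomain transcription factors, the relatives of Drosophila Distal-less. In the embryonic forebrain they are switched on in progenitors and young neurons of the ganglionic eminences, where they promote GABAergic fate and interneuron migration. The genes sit in pairs transcribed towards each other, and enhancers between the members of a pair are shared by both. H3K27ac is an acetylation of histone H3 that marks active promoters and enhancers. In a mixed culture, fewer cells with the mark and less of the mark per cell cannot be told apart.

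RefSeq promoters of GRCm38.p6, from 250 bases before to 50 bases after a transcript start, were at hand for 2 of the 4 members, Dlx1 and Dlx2. A promoter of Dlx6os1, the long noncoding RNA known as Evf2 that is transcribed across Dlx6, was added because it lies between 2 of the called regions described below. The 3 are shown 5′ to 3′ on the strand of the transcript, with capitals for matches to TAATTA, a core bound by many homeodomain proteins, and CACGTG, the E-box bound by several bHLH factors. Both motifs read the same on either strand and do not overlap each other here. TGACTCA and TGACGTCA, the sites of AP-1 and CREB, were also searched on both strands and had no match in these 3.
Dlx1, chr2:71529195-71529494, plus strand: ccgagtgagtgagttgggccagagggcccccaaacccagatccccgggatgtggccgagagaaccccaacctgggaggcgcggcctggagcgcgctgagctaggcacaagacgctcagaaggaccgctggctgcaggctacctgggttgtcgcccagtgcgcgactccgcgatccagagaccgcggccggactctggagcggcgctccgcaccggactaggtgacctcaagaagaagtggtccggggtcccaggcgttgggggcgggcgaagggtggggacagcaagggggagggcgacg
Dlx2, chr2:71546705-71547004, minus strand: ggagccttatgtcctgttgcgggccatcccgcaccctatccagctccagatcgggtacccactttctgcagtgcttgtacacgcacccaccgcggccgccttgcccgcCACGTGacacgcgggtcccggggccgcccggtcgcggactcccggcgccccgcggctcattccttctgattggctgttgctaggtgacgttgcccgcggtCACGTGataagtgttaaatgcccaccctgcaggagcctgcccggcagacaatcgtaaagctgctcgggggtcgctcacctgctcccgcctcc
Dlx6os1, chr6:6869484-6869783, minus strand: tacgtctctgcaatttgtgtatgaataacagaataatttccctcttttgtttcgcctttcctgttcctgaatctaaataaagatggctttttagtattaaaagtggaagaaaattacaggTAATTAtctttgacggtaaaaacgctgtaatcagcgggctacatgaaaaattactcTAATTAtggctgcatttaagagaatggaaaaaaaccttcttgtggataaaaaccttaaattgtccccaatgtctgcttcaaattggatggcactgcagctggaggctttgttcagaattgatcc
The Dlx1 and Dlx2 promoters held 27 and 29 CpG dinucleotides, against a median of 7 over 32619 promoters of the table. The Dlx2 promoter held CACGTG at 2 places, a motif present in 7.20% of all promoters. The Dlx6os1 promoter held TAATTA at 2 places, a motif present in 5.25%. TGACTCA was present in 5.22% of all promoters and TGACGTCA in 1.80%. A peak touched the Dlx1 promoter in 6 of 8 lists, 3 of each culture, and covered all of it in 4. No list had a peak on the Dlx2 promoter. The region called inside Dlx2 in all 8 lists, merged over them, stopped just short of it, at base 71546703 in CTX KCl replicate 2. Its lowest upper end in a list was base 71546359, in MGE unstimulated replicate 1. No list had a peak on the Dlx6os1 promoter, which lay in the gap between regions called on both sides of it. Another Dlx6os1 promoter of the table, chr6:6861634-6861933, with TAATTA at 1 place, was touched by a peak in MGE KCl replicate 1 and CTX KCl replicate 1.

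Both loci were marked in both cultures. The called regions covered part of Dlx1, the upper part of Dlx2 and of Dlx5, where these genes are known to start, the stretch between Dlx6 and Dlx5, and parts of the neighbour Metap1d, a methionine aminopeptidase gene. Acetylation called at Dlx6 itself was found in 3 MGE libraries and in no CTX library, in peaks of very low fold enrichment for their lists. With 2 kb to each side of Dlx6, all libraries of both cultures held called length. Where peaks of the lists were merged into regions, 5.15% of all regions had a peak in at least 3 MGE lists and no CTX list. As whole windows, neither locus passed the threshold between MGE and CTX cultures or with KCl. Between cultures 27.9% of all windows passed, among them many but not all of the listed genes of MGE and cortical identity. Each list was called separately, so the measured quantity was the length called as peak, in kb or in bp per Mb called in that list. The lists held 36033 to 66823 peaks and 21.1 to 44.7 Mb, with the longest totals in the CTX libraries numbered 2. Read depth is unknown, and a stretch with no peak may still carry the mark.

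**Figure D1:**
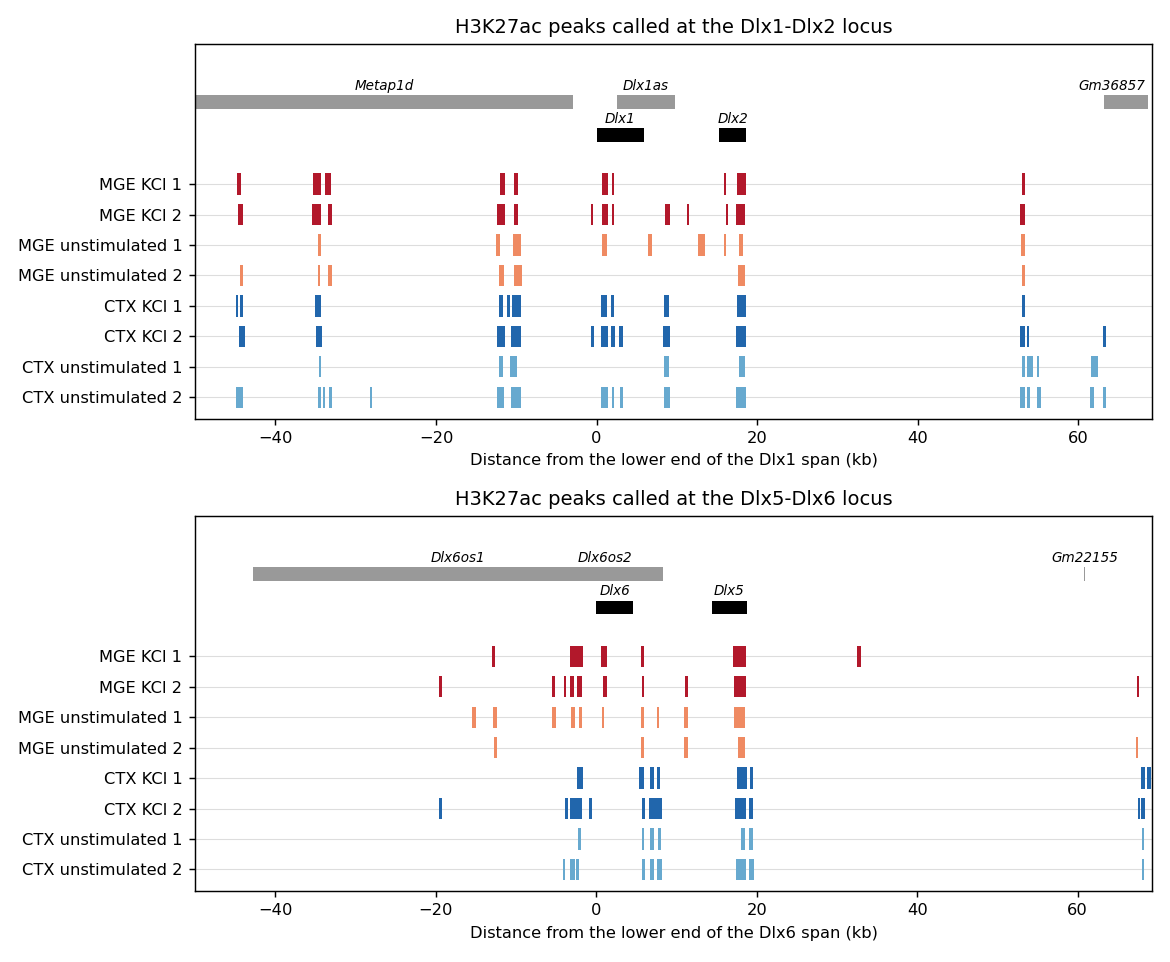
Peaks of each library (coloured bars, 1 row per library, MGE rows above CTX rows) at the Dlx1-Dlx2 locus (top) and the Dlx5-Dlx6 locus (bottom), by distance in kb from the lower end of the first gene; black bars are the members and grey bars their neighbours. Peaks recur at the upper end of Dlx2 and of Dlx5 in all 8 libraries, and peaks inside Dlx6 appear in 3 MGE rows and no CTX row.

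Dlx1, which with Dlx2 acts early in the specification of ganglionic eminence neurons, had called lengths of 1.097 and 1.119 kb in MGE KCl libraries, 0.711 and 0 kb in MGE unstimulated libraries, 1.14 and 1.84 kb in CTX KCl libraries, and 0 and 1.53 kb in CTX unstimulated libraries. The cultures overlapped fully, and in each culture 1 of the 2 unstimulated libraries had no peak in the gene. Per Mb called, the gene had 43.0 ± 11.4 bp in MGE KCl and 15.4 ± 21.8 bp in MGE unstimulated cultures (SD, n = 2 each). It had 40.5 ± 0.747 bp in CTX KCl and 17.8 ± 25.2 bp in CTX unstimulated cultures (SD, n = 2 each). The difference by treatment was not tested in the gene alone. The main region lay at chr2:71528697-71529572, which contains the promoter printed above, and was called in 6 lists, absent from MGE unstimulated replicate 2 and CTX unstimulated replicate 1. A shorter region at chr2:71529901-71530364, also in Dlx1, was called in both KCl lists of each culture, in no MGE unstimulated list and in 1 CTX unstimulated list.

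Dlx2 was called in every library. Its called length was 1.28 and 1.41 kb in MGE KCl libraries, 0.762 and 0.917 kb in MGE unstimulated libraries, 1.04 and 1.23 kb in CTX KCl libraries, and 0.674 and 1.25 kb in CTX unstimulated libraries. In kb the cultures overlapped, and an unstimulated library held the lowest value of each culture. Per Mb called, Dlx2 had 33.1 to 59.7 bp in the 4 MGE libraries and 27.5 to 36.5 bp in the 4 CTX libraries, which overlap. With 2 kb to each side the MGE libraries had 41.3 to 59.7 bp and the CTX libraries 27.5 to 36.5 bp, with no overlap, a pattern found in 23% of gene windows with 50 kb flanks. That order needs both the wider interval and the division by list length. All of the length called in Dlx2 lay in the region chr2:71545447-71546703, at the upper end of the gene, in the 4 CTX libraries and MGE unstimulated replicate 2. In the other MGE libraries that region held 81.2% and 79.2% of it (MGE KCl) and 66.9% (MGE unstimulated replicate 1). A second region at chr2:71543984-71544476, near the lower end of Dlx2, was called in 3 MGE lists and no CTX list, with 0.241 and 0.293 kb in MGE KCl libraries and 0.252 kb in MGE unstimulated replicate 1.

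The stretch between Dlx1 and Dlx2, where shared enhancers of the pair are known, held 0 and 0.916 kb in MGE KCl libraries, 1.36 and 0 kb in MGE unstimulated libraries, 0.675 and 0.851 kb in CTX KCl libraries, and 0.581 and 0.721 kb in CTX unstimulated libraries. The 4 CTX libraries were close together, while MGE libraries lay both above and below them. All of the CTX length between the genes came from a region at chr2:71536427-71537277, 2.45 kb above Dlx1 and inside the antisense gene Dlx1as. It was called in all 4 CTX lists and in MGE KCl replicate 2. The lower flank, where the regions lie in Metap1d apart from 1 short region 0.338 kb below Dlx1, held 3.41 and 3.95 kb in MGE KCl libraries, 1.85 and 2.81 kb in MGE unstimulated libraries, 3.36 and 3.95 kb in CTX KCl libraries, and 1.63 and 4.29 kb in CTX unstimulated libraries. It was the longest interval of the locus in every library but CTX unstimulated replicate 1, so a value for the whole window rests in good part on a neighbouring gene. In the upper flank a region at chr2:71580815-71581503, 34.1 kb above Dlx2, was called in all 8 lists.

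Dlx6, a member of the later-acting pair, was the only one of the 4 genes with no peak inside it in a whole culture. Its called length was 0.652 and 0.484 kb in MGE KCl libraries and 0.251 and 0 kb in MGE unstimulated libraries, against 0 kb in all 4 CTX libraries. The cultures met at 0, because MGE unstimulated replicate 2 had no peak either. The peaks formed 1 region, chr6:6863974-6864652, which also overlaps the noncoding genes Dlx6os1 and Dlx6os2. They ranked very low in fold enrichment within their own lists and low in −log10 q. In MGE unstimulated replicate 1 no peak of the whole list had a lower fold enrichment, and the other 2 peaks stood above 0.00278% and 0.0222% of their lists. By −log10 q the MGE KCl peaks stood at percentiles 26.3 and 30.3 and the MGE unstimulated peak at 2.18. With 2 kb to each side of Dlx6 all libraries held called length, 0.379 to 1.38 kb in MGE and 0.305 to 1.155 kb in CTX libraries, which overlap, as do 18.002 to 64.4 bp per Mb called in MGE and 7.10 to 37.2 bp in CTX libraries. The absence in CTX lists therefore ends when the close surroundings of the gene are counted. Of all merged regions of the genome, 5.15% had a peak in at least 3 MGE lists and no CTX list, the pattern of the region in Dlx6.

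Dlx5 was called in every library, with 1.57 and 1.46 kb in MGE KCl libraries, 1.27 and 0.915 kb in MGE unstimulated libraries, 1.23 and 1.44 kb in CTX KCl libraries, and 0.611 and 1.19 kb in CTX unstimulated libraries. In kb the cultures overlapped. Per Mb called they did not, with 43.46 to 73.0 bp in MGE libraries and 25.95 to 43.20 bp in CTX libraries. The gap was narrow, and 23% of gene windows with 50 kb flanks had cultures that did not overlap. The length lay in the region chr6:6880390-6882070 at the upper end of the gene, called in all 8 lists. Just above it, a region at chr6:6882390-6883028, 0.322 kb from the gene, was called in all 4 CTX lists and in no MGE list. With the 2 kb to each side included, Dlx5 had 43.5 to 73.0 bp per Mb called in MGE libraries and 42.4 to 52.8 bp in CTX libraries, which overlap. The order seen inside the gene therefore ends when its close surroundings are counted.

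Between Dlx6 and Dlx5, where conserved enhancers of this pair are known, MGE libraries had less called length than CTX libraries in kb. The values were 0.425 and 0.645 kb in MGE KCl libraries, 1.096 and 0.812 kb in MGE unstimulated libraries, 1.61 and 1.99 kb in CTX KCl libraries, and 1.15 and 1.42 kb in CTX unstimulated libraries. The cultures did not overlap in kb, a scale for which the share of all windows without overlap was not computed. They did overlap per Mb called, at 31.5 ± 13.8 bp in MGE and 45.7 ± 9.80 bp in CTX cultures (SD, n = 4 each). A region at chr6:6868626-6869409, 0.656 kb above Dlx6, was called in all 8 lists. The next region, chr6:6869933-6871519, was called in all 4 CTX lists, with 0.843 to 1.59 kb, and in MGE unstimulated replicate 1 with 0.247 kb. Another, chr6:6874261-6874742, was called in 3 MGE lists and no CTX list. The stretch between the genes thus held regions of both cultures side by side.

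In the lower flank of this pair all regions lay in Dlx6os1. The largest, chr6:6860068-6861671, was called in 7 lists and absent from MGE unstimulated replicate 2. The flank held 1.87 and 2.24 kb in MGE KCl libraries, 2.28 and 0.435 kb in MGE unstimulated libraries, 0.690 and 2.57 kb in CTX KCl libraries, and 0.405 and 1.182 kb in CTX unstimulated libraries, with wide overlap. Within it, chr6:6850354-6851001, 12.3 kb below Dlx6, was called in 3 MGE lists and no CTX list. The upper flank held 0 to 0.429 kb in MGE libraries and 0.738 to 1.13 kb in CTX libraries, with no overlap in kb or per Mb called. Per Mb called, 23% of gene windows with 50 kb flanks had no overlap either. Part of the CTX length in the upper flank was the region beside Dlx5 named above. Another part was chr6:6931259-6931799, 49.2 kb above Dlx5 and close to the edge of the window, called in all 4 CTX lists and no MGE list.

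Over the whole Dlx1-Dlx2 window, 289.8 and 252 bp per Mb called were found in MGE KCl libraries, 223 and 196 bp in MGE unstimulated libraries, 229 and 201 bp in CTX KCl libraries, and 218 and 238 bp in CTX unstimulated libraries. MGE libraries held both the highest and the lowest values, around CTX libraries that lay close together. The mean was 240.3 ± 40.0 bp in MGE and 222 ± 15.9 bp in CTX cultures (SD, n = 4 each). On the log2 scale with 10 bp added, MGE minus CTX was 0.10 ± 0.140 (SE), with a 95% interval of -0.20 to 0.40. The limma adjusted p over 17321 gene windows was 0.623, and the exact two-sided permutation test gave p = 0.429 (adjusted p = 0.597, smallest possible p = 0.0286).

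Over the whole Dlx5-Dlx6 window the values were 230.3 and 159.7 bp per Mb called in MGE KCl libraries, 212 and 118 bp in MGE unstimulated libraries, 154 and 159 bp in CTX KCl libraries, and 123 and 109 bp in CTX unstimulated libraries. Of the MGE libraries, 3 stood above all CTX libraries, 1 of them by less than 1 bp, and MGE unstimulated replicate 2 lay within the CTX range. The mean was 180.2 ± 50.9 bp in MGE and 136 ± 24.2 bp in CTX cultures (SD, n = 4 each). MGE minus CTX was 0.35 ± 0.188 (SE) on the log2 scale, with a 95% interval of -0.05 to 0.75 and a limma adjusted p of 0.179. The exact two-sided permutation test gave p = 0.171 (adjusted p = 0.345). Without MGE unstimulated replicate 2 the difference was 0.55 and the limma adjusted p 0.0484, the only alternative in which either locus passed the threshold of 0.05.

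In the same fit 27.9% of windows passed for MGE minus CTX, 2298 higher and 2527 lower, and 23% had MGE and CTX libraries that did not overlap. Neither count includes a Dlx locus. Without division by the length of each list, 296 windows were higher and 2555 lower, and the median of all windows was -0.34 rather than 0.10 on the log2 scale. The Dlx1-Dlx2 difference was then -0.37 and that of Dlx5-Dlx6 -0.11. Relative to the median of all windows, Dlx1-Dlx2 stood at -0.03 on this scale and at 0.01 on the scale per Mb called. Dlx5-Dlx6 stood at 0.23 and 0.26. With every list cut to equal called bases they stood at 0.62 and 0.37. Dlx1-Dlx2 was thus at the middle of all windows on the first 2 scales and above it on the last, and it passed the threshold on none.

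**Figure D2:**
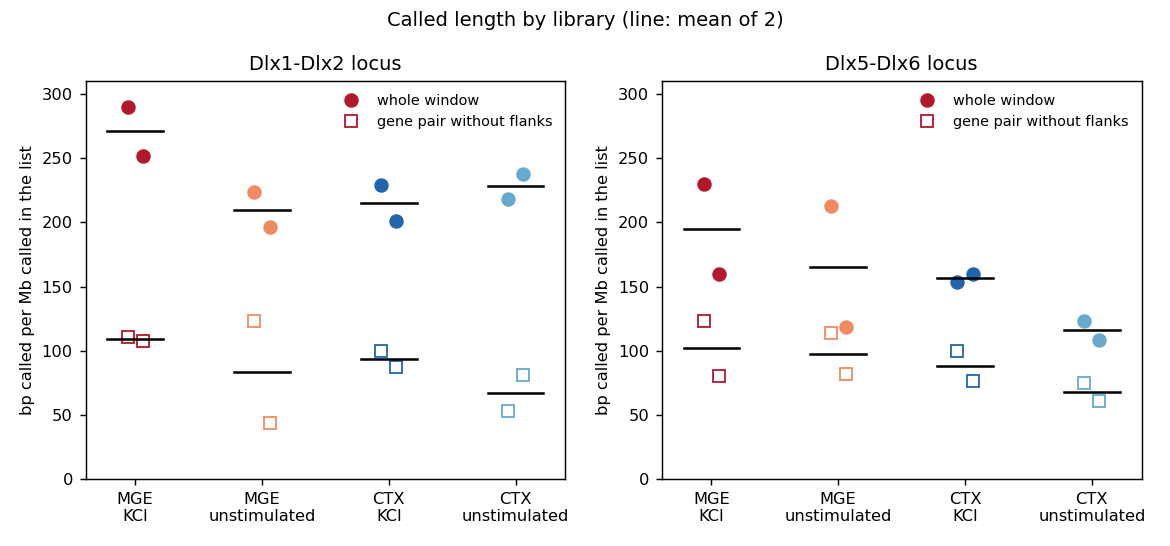
Length called as H3K27ac peak per Mb called (y axis, bp) in each library at the Dlx1-Dlx2 locus (left) and the Dlx5-Dlx6 locus (right), for the window with 50 kb flanks (filled circles) and the gene pair alone (open squares); lines are means of 2 libraries, and groups run from MGE KCl to CTX unstimulated. In the Dlx1-Dlx2 window MGE KCl libraries, at 289.8 and 252 bp, are the highest, and in the Dlx5-Dlx6 window the 2 libraries of each MGE group lie far apart.

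KCl depolarisation, which switches on activity-regulated genes, gave no adjusted p under 0.05 at either locus. Per Mb called, the libraries separated in 2 of the 4 comparisons. With 2 libraries against 2, an exact two-sided test of such a separation can give no p below 0.333. The share of all windows that separated in this way was not computed. At Dlx1-Dlx2 in MGE cultures the window held 271 ± 26.9 bp per Mb called with KCl and 209.8 ± 19.2 bp without (SD, n = 2 each), and the 2 KCl libraries lay above the 2 unstimulated ones. The log2 difference was 0.35 ± 0.198 (SE; 95% interval -0.07 to 0.77; limma adjusted p = 0.438). In CTX cultures the window held 215 ± 20.02 bp with KCl and 228 ± 14.04 bp without (SD, n = 2 each), and the log2 difference was -0.08 ± 0.198 (SE; 95% interval -0.50 to 0.34; limma adjusted p = 0.953). Without division by list length the median of all windows was 0.21 for KCl in MGE and 0.22 in CTX cultures, and relative to it Dlx1-Dlx2 stood at 0.38 in MGE and -0.14 in CTX cultures. The difference of the 2 responses, MGE minus CTX, was 0.43 ± 0.279 (SE; limma adjusted p = 0.891).

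At Dlx5-Dlx6 the window held 195 ± 49.9 bp per Mb called in MGE KCl and 165 ± 66.5 bp in MGE unstimulated cultures (SD, n = 2 each), with overlap. The log2 difference was 0.26 ± 0.266 (SE; limma adjusted p = 0.755), and without MGE unstimulated replicate 2 it was -0.14. In CTX cultures 157 ± 4.21 bp were called with KCl and 116 ± 10.2 bp without (SD, n = 2 each), with both KCl libraries above both unstimulated ones and no overlap. That log2 difference was 0.40 ± 0.266 (SE; limma adjusted p = 0.636). In kb the CTX libraries overlapped, at 4.37 and 7.13 kb with KCl and 2.90 and 4.67 kb without. The separation thus needs the division by list length. With every list cut to equal called bases the log2 difference in CTX cultures was 0.03, or -0.13 relative to the median of all windows. The responses of MGE and CTX cultures differed by -0.15 ± 0.376 (SE; limma adjusted p = 0.999). Over all windows 2.89% passed for KCl in MGE cultures, 332 higher and 169 lower (105 and 85 with every list cut to equal called bases, and 153 and 301 without MGE KCl replicate 2), 0.318% in CTX cultures, and 0.0231% for the difference of the responses.

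Where peaks of the 8 lists touched, they were merged, which gave 23 regions at Dlx1-Dlx2 and 17 at Dlx5-Dlx6. A peak in all 8 lists was found at 5 of the 23 and 2 of the 17 regions, against 11.4% of all merged regions of the genome. No region of either locus was called in all 4 MGE lists and no CTX list, a pattern of 2.68% of all regions. The reverse, all 4 CTX lists and no MGE list, held for none of the 23 and for 2 of the 17, both above Dlx5, against 4.83% overall. At least 3 MGE lists and no CTX list held for 1 region at Dlx1-Dlx2, in Dlx2, and for 3 at Dlx5-Dlx6, against 5.15% overall. By treatment in MGE cultures, 1 of 15 regions at Dlx1-Dlx2 and 0 of 13 at Dlx5-Dlx6 were called in both KCl lists and neither unstimulated list, against 8.02%, and none had the reverse pattern, against 3.8%. In CTX cultures, 0 of 19 and 0 of 11 regions had both KCl lists and neither unstimulated list, against 6.08%. Both unstimulated lists and neither KCl list held for 2 of 19 and 0 of 11, against 4.24%, and these 2 lay 36.2 and 42.8 kb above Dlx2. With counts this small the shares were described and not tested.

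Most peaks inside the gene pairs had very low fold enrichment for their list, while their significance ranged from very low to high. Both values are the authors', 1 per peak, and each was placed as the percentage of peaks in the same list that had a lower value, a measure chosen after the data had been seen. Of the 62 peaks overlapping a pair from the start of its first gene to the end of its second, 53 were among the lowest 5% of their list by fold enrichment, while 37 were above its median by −log10 q and 25 below it, from percentile 2.18 to 90.7. Of the 53, 29 (54.7%) were above the median by −log10 q, against 25.7% of the 18933 peaks of the 8 lists that were as low by fold enrichment. All 62 stood higher by −log10 q than by fold enrichment, but so did 92.4% of those 18933 peaks. At Dlx1-Dlx2 the median fold percentile was 0.223 (0.0104 to 5.83) over 16 peaks in MGE lists and 1.04 (0.136 to 62.8) over 16 peaks in CTX lists. At Dlx5-Dlx6 it was 0.232 (0 to 4.05) over 15 peaks in MGE lists and 1.47 (0.311 to 42.2) over 15 peaks in CTX lists. The median percentile by −log10 q was 50.1 in MGE and 49.7 in CTX lists at Dlx1-Dlx2, and 69.0 in MGE and 71.0 in CTX lists at Dlx5-Dlx6. Peaks of a pair within a list share a locus and are not independent.

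Inside the pairs, the CTX peaks with the highest fold percentiles were those at the upper ends of Dlx2 and Dlx5. In the region at the upper end of Dlx2 the fold percentiles were 2.69 and 5.83 in MGE KCl lists and 1.15 and 0.712 in MGE unstimulated lists, against 62.8 and 53.2 in CTX KCl lists and 18.4 and 40.9 in CTX unstimulated lists. In the region at the upper end of Dlx5 they were 3.25 and 4.05 in MGE KCl lists and 1.01 and 0.753 in MGE unstimulated lists, against 38.9 and 32.7 in CTX KCl lists and 21.1 and 42.2 in CTX unstimulated lists. At both, every MGE list was below every CTX list. By −log10 q the same regions overlapped between cultures, at 43.9 to 89.5 in MGE and 43.1 to 82.0 in CTX lists for Dlx2, and at 62.0 to 90.7 in MGE and 66.1 to 86.3 in CTX lists for Dlx5. Among regions called in all 8 lists, 2 of 5 at Dlx1-Dlx2 and 1 of 2 at Dlx5-Dlx6 had every MGE fold percentile below every CTX one, against 6.62% of such regions in the genome. Of these 3, the one outside the members lay in Metap1d at chr2:71517378-71518802. Over the genome only MGE below CTX was counted, the direction described at Dlx2 and Dlx5, so the share is no independent test. Ranks in lists of different lengths are no levels, and no change of acetylation was read from them.

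**Figure D3:**
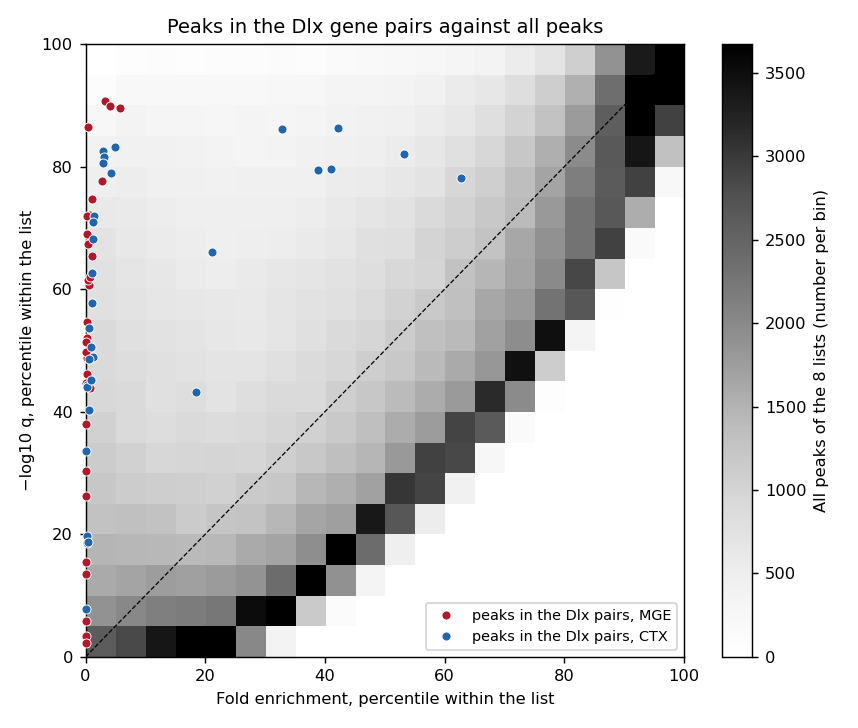
Fold enrichment (x axis) and −log10 q (y axis), each as a percentile within the peak's own list, for the 62 peaks inside the Dlx pairs (points, MGE and CTX) over all peaks of the 8 lists (grey, number per bin; the darkest shade includes bins above the scale). All points lie above the dashed line of equal percentiles, and 53 of 62 lie in the lowest 5% by fold enrichment.

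Low fold enrichment extended into the flanks of Dlx5-Dlx6 in MGE lists, and less so elsewhere. Flank peaks at Dlx1-Dlx2 had a median fold percentile of 28.5 over 23 peaks in MGE lists and 12.2 over 34 in CTX lists, and at Dlx5-Dlx6 of 0.2203 over 16 peaks in MGE lists and 5.14 over 19 in CTX lists. Among 2763 protein-coding gene spans overlapped by at least 20 peaks of the 8 lists, taking each Dlx pair as 1 span, the median fold percentile over the peaks was 0.591 for Dlx1-Dlx2 and 0.813 for Dlx5-Dlx6, against a median of 45.3 over all spans. Only Mn1 was lower than Dlx1-Dlx2, and only Mn1, Dlx1-Dlx2 and Sfi1 were lower than Dlx5-Dlx6. The next lowest spans were Bcl11a (0.856), Thra (0.877), Ramp1 (0.918), Gad1 (1.01), Efnb2 (1.17) and Pax6 (1.25). Gad1 encodes a GABA-synthesising enzyme, and Pax6 is a factor of cortical progenitors.

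Among all windows the loci were well covered. The mean level over the 8 libraries was above that of 92.3% of windows for Dlx1-Dlx2 and 77.1% for Dlx5-Dlx6, with a median window of 98.2 bp per Mb called. By MGE minus CTX, 50.5% of windows lay below Dlx1-Dlx2 and 76.2% below Dlx5-Dlx6. The 5 windows most like Dlx1-Dlx2, by the root-mean-square log2 difference over the 8 libraries, were those of Gpr107 (0.108), Cul7 and Rrp36 (0.123 each, with the same peaks), Dnhd1 (0.131) and Pou2f2 (0.142). For Dlx5-Dlx6 they were Zmynd11 (0.139), Fn3krp (0.148), Rab40b (0.149), Kcnd1 (0.158) and Man2a2 (0.160). Of the remaining Dlx genes, Dlx4 had no called base in its window in any library. The Dlx3 window, with 50 kb to each side, had a mean of 9.11 bp per Mb called and was not tested, being under the minimum of 10. It held called length in 3 MGE libraries, at 18.9, 27.3 and 19.8 bp per Mb called, and in 1 CTX library at 6.99 bp. Whether that length lay at Dlx3 itself or in its flanks was not examined.

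The labelled cultures were checked against markers and against genes of the GABAergic programme linked to Dlx factors. Of 28 such genes tested, 11 were higher and 6 lower in MGE than in CTX cultures by limma adjusted p, beside 27.9% of all windows called, with a median log2 difference of 0.32 against 0.10 over all windows. The direction was thus mixed within the list. Those with the smallest adjusted p were Maf, Erbb4, Lhx6, Gad2, Nkx2-1 and Meis2. Lhx6, which directs MGE interneuron development downstream of Nkx2-1, had 239, 188, 296 and 263 bp per Mb called in MGE libraries and 63.2, 52.3, 77.0 and 47.8 bp in CTX libraries, a log2 difference of 1.87 ± 0.180 (SE; limma adjusted p = 2.9e-06). Nkx2-1, which specifies the MGE, had 21.4 to 119.8 bp in MGE libraries and 0 in all CTX libraries. Gad2 was higher in MGE cultures, at 1.39 ± 0.161 (SE), while Gad1 was -0.17 ± 0.201 (SE; limma adjusted p = 0.557). Maf and Erbb4 were higher by 2.55 ± 0.206 and 1.49 ± 0.135 (SE), and Meis2 was lower, at -1.27 ± 0.159 (SE).

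Of 23 tested factors and markers of cortical projection neurons, 15 were lower and 2, Cux1 and Cux2, higher in MGE than in CTX cultures, beside 27.9% of all windows called in either direction. The median log2 difference of the list was -1.04. Neurod6, a bHLH factor of cortical projection neurons, had 0 bp in all MGE libraries and 49.9 to 129 bp per Mb called in CTX libraries. Emx1, a homeobox gene of the dorsal forebrain, was likewise at 0 in all MGE libraries and at 53.1 to 103 bp in CTX libraries. Tbr1, a factor of deep-layer neurons, had 11.2 to 23.7 bp in MGE libraries and 45.0 to 83.8 bp in CTX libraries. Nfib, Bhlhe22, Pax6 and Zbtb18 were also lower, by log2 differences of -2.36, -2.15, -3.19 and -3.41. The Dlx loci, at log2 differences of 0.10 and 0.35 that did not pass, were not tested against either list.

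Markers of astrocytes and of the oligodendrocyte lineage were lower in MGE than in CTX cultures. All counts of called markers here are by limma adjusted p, beside 27.9% of all windows called in either direction. Summed over 4 astrocyte markers, 112 to 295 bp per Mb called were found in MGE libraries and 615 to 633 bp in CTX libraries, and all 4 were lower in MGE cultures. Summed over 4 oligodendrocyte lineage markers, the values were 189 to 351 bp in MGE and 837 to 999.6 bp in CTX libraries, and all 4 were lower in MGE cultures. Over the 8 tested of 9 MGE and GABAergic markers, the sums were 1181 to 1304 bp in MGE and 449.7 to 561 bp in CTX libraries. Of these, 6 were higher, and the untested Lhx8 was at 0 everywhere. Over the 7 tested of 8 cortical glutamatergic markers the sums were 256 to 384 bp in MGE and 577 to 1013 bp in CTX libraries, with 6 lower. Over the 6 tested of 7 LGE and CGE markers they were 141 to 389 bp in MGE and 344 to 650.2 bp in CTX libraries, with 1 higher and 2 lower. Over 4 microglia markers they were 371 to 436 bp in MGE and 292 to 342 bp in CTX libraries, with 1 higher and 1 lower. Over 5 progenitor markers they were 424 to 615 bp in MGE and 643 to 671 bp in CTX libraries, with 2 lower. The window of Aqp4, a marker of the astrocyte list, held no called length in any MGE library, which does not show that astrocytes were absent. The part of these markers' cells in the values at the Dlx loci was not tested.

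Of 24 activity-regulated genes, 5 were higher with KCl in MGE cultures by limma adjusted p, namely Nr4a2, Bdnf, Nr4a1, Fosb and Fos, and none in CTX cultures, beside 2.89% of all windows called in MGE and 0.318% in CTX cultures. At an unadjusted p under 0.05 there were 13 of 24 in MGE and 11 of 24 in CTX cultures, against 15.5% of all windows in MGE and 11.8% in CTX cultures. The median log2 difference of the list was 0.57 in MGE and 0.50 in CTX cultures. Nr4a2, a nuclear receptor gene, had 163 and 168 bp per Mb called in MGE KCl libraries and 0 in both MGE unstimulated libraries, against 171 and 196 bp in CTX KCl libraries and 129 and 151 bp in CTX unstimulated libraries, and was the one gene of the list whose response differed between cultures (limma adjusted p = 0.000379). Fos, an immediate early gene, had 286 and 259 bp per Mb called in MGE KCl libraries and 143 and 113 bp in MGE unstimulated libraries (log2 difference 1.04 ± 0.224 SE, limma adjusted p = 0.0210), and 289 and 228 bp in CTX KCl libraries and 139.9 and 106 bp in CTX unstimulated libraries (1.01 ± 0.224 SE, limma adjusted p = 0.0688). Npas4, a neuronal activity-dependent factor, had log2 differences of 0.55 in MGE and 0.38 in CTX cultures and did not pass in either (limma adjusted p = 0.213 and 0.546). No gene of the GABAergic programme passed for KCl in either culture by limma, with an unadjusted p under 0.05 for 3 of 28 in MGE and 3 of 28 in CTX cultures, beside 15.5% of all windows in MGE and 11.8% in CTX cultures. Among the cortical factors 1 of 23, Bhlhe22, was higher with KCl in MGE cultures and none changed in CTX cultures (2 of 23 at an unadjusted p under 0.05).

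**Figure D4:**
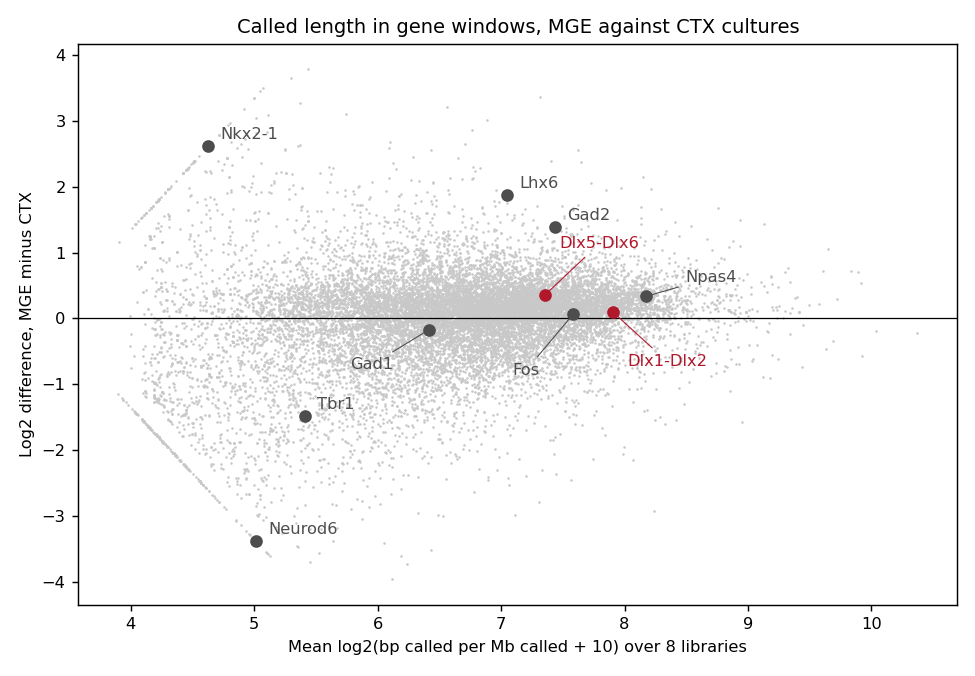
Log2 difference in called length, MGE minus CTX (y axis), against the mean log2 level over the 8 libraries (x axis) for 17321 gene windows (grey), with the Dlx loci in red and other named genes in dark grey. Dlx1-Dlx2 and Dlx5-Dlx6 lie at 0.10 and 0.35 among the highly covered windows, while Lhx6 and Nkx2-1 lie above and Neurod6 and Tbr1 below.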

How the data were processed

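H3K27ac was precipitated with the antibody ab4729 after fixation with 1% formaldehyde for 10 min, and reads were 50 bp, per the labels' protocols. Peaks are in mm10 coordinates. Named among the tools, per the submitters' processing notes, are MACS3 3.0.0a7, Bowtie2 2.3.3, deepTools 3.4.3 and cutadapt 1.18. Tool settings, input controls and duplicate handling: not given in the sources used here. Deposited were broad peaks called separately in each library, with a fold enrichment (a linear ratio), a −log10 p and a −log10 q per peak, as deposited by the authors. These were used only within a list. A deeper library yields more and longer peaks, and depth is unknown.

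Called length was summed in 21629 windows, each a protein-coding gene span of GRCm38.p6 with 50 kb to each side and the 2 Dlx loci in place of their genes. The 29 peaks outside chromosomes 1 to 19 and X were left out. Windows with a mean of at least 10 bp per Mb called (17321) were fitted with limma 3.58.1 (R 4.3.3, empirical Bayes with trend) on log2(bp per Mb called + 10), over all 8 libraries as 4 groups of 2, with Benjamini-Hochberg adjustment and a threshold of 0.05. The fit was tested on simulated data with normal noise of the spread that the fit itself had found. That test does not cover lengths entered as 0, depth or list length. Members and gene lists were chosen with earlier results of these data known. Named were the members, the 5 windows most like each locus, up to 6 called genes per list and contrast by adjusted p, and Gad1, Gad2, Lhx6, Nkx2-1, Dlx3, Dlx4, Fos, Npas4, Neurod6 and Tbr1. One further gene of the naming rule is not reported here. Other genes with low fold percentiles were named after their values were seen. Alternatives changed scaling, peak threshold, the gap over which peaks were merged, flank, pseudocount, filter, trend, replicate block and the libraries in the fit.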

Additional observations from a re-analysis of the deposited data

How the results depend on the processing

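Of 160 log2 differences recomputed under alternatives, 142 kept their direction and their side of the threshold, 17 changed sign without passing, and 1 passed. Of the 160, 42 are the main estimate itself, since the setting changes only its error or leaves out libraries it does not use. The one that passed was Dlx5-Dlx6, MGE minus CTX, without MGE unstimulated replicate 2 (0.55, limma adjusted p = 0.0484). With called bp as such, MGE minus CTX was -0.37 at Dlx1-Dlx2 and -0.11 at Dlx5-Dlx6, and KCl in CTX at Dlx1-Dlx2 was 0.0754. With a −log10 q of at least 5, MGE minus CTX at Dlx1-Dlx2 was -0.53, KCl in MGE at Dlx1-Dlx2 was 4.57 (against 0.35; limma adjusted p = 0.247), KCl in CTX at Dlx1-Dlx2 was 2.02, MGE minus CTX at Dlx5-Dlx6 was 0.91 and KCl in CTX there 1.87, and 8 and 7 merged regions were left of 23 and 17. No peak of the MGE unstimulated lists at Dlx1-Dlx2, or of CTX unstimulated replicate 1 at either locus, reached that limit. Those libraries entered at 0, so the size of these differences depends on the pseudocount. With a 10 kb flank, KCl in CTX at Dlx1-Dlx2 was 0.54, and the difference of KCl responses was -0.37 at Dlx1-Dlx2 and 0.10 at Dlx5-Dlx6. With a 100 kb flank, MGE minus CTX at Dlx1-Dlx2 was -0.33 (limma adjusted p = 0.0590) and the difference of responses at Dlx5-Dlx6 was 0.0505. With equal called bases that difference was 0.26. In 2 alternatives chosen after seeing the data, KCl in CTX at Dlx1-Dlx2 was 0.45 with no flank and 0.0700 with the CTX libraries numbered 1 only. The cause of the other changes was not tested. Leaving out each library in turn, MGE minus CTX ran from 0.05 to 0.15 at Dlx1-Dlx2 and from 0.15 to 0.55 at Dlx5-Dlx6, KCl in MGE from 0.26 to 0.45 and from -0.14 to 0.65, KCl in CTX from -0.17 to 0.00982 and from 0.32 to 0.49, and the difference of responses from 0.34 to 0.53 and from -0.54 to 0.25.

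Replicate numbers were treated as not pairing the libraries, since the labels give them no shared source. The correlation of deviations between same-numbered libraries was 0.0552 between the MGE groups, 0.341 between the CTX groups and -0.12 to 0.25 otherwise. These values do not settle the matter, so a fit with a replicate block is given beside the main one. With the replicate block the log2 differences at the loci were as reported, 0.10 and 0.35 for MGE minus CTX, 0.35 and 0.26 for KCl in MGE, -0.08 and 0.40 for KCl in CTX, and 0.43 and -0.15 for the difference of responses, and no locus passed (lowest limma adjusted p = 0.0969). The block called 2913 windows higher and 2794 lower for MGE minus CTX.

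Over all windows and for MGE minus CTX, limma called 4825 windows, against 2851 with called bp as such, 428 with a −log10 q of at least 5, 3098 with a 10 kb flank, 2387 with no flank and 1113 with the CTX libraries numbered 1 only. For KCl in MGE it called 501, against 0 with called bp as such (1344 at an unadjusted p under 0.05) and with the CTX libraries numbered 1 only (2468), 4 with a −log10 q of at least 5, 190 with equal called bases, 267 with pseudocount 1 and 755 with pseudocount 50, and 172 to 454 leaving out a library. For KCl in CTX it called 55, against 0 with called bp as such (927), 0 with a −log10 q of at least 5 (693), 4 with pseudocount 1, 25 with no flank, 30 with the CTX libraries numbered 1 only, 124 with a 100 kb flank, 282 with pseudocount 50 and 290 with equal called bases, and 0 (1178) without CTX KCl replicate 1, 3 without CTX unstimulated replicate 1, 10 without CTX KCl replicate 2 and 97 without CTX unstimulated replicate 2. For the difference of responses it called 4, against 0 with called bp as such (287), with a −log10 q of at least 5 (503) and without CTX KCl replicate 1 (806), and up to 62 otherwise. The lists set the limits of these counts. Acetylation that misses the caller's limit is entered as 0, and depth is unknown.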
